A study of Mus musculus with 6 samples.

Results

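The interferon response genes examined here are a list of 34 genes given by symbol. The rule that picks them uses no measured value, but the list was chosen with earlier results of these data known. Of the 34 genes, 32 had a row among the 17524 genes of the deposited table. All 32 passed the filter on low counts, among 13565 genes tested. The remaining members, Mx1 and Mx2, are annotated by RefSeq as transcribed pseudogenes in the C57BL/6J reference and were not analysed here. The study sequenced RNA from 6 mouse heart libraries in 2 groups of 3. The TFEB libraries (34, 41 and 43, after their titles) are labelled as TFEB overexpression and come from R26-LSL-TFEB [+/+]; Acta2-cre mice. In this line a cassette for the transcription factor TFEB at the Rosa26 locus is switched on by Cre recombinase under the Acta2 promoter, which is active in smooth muscle and in activated fibroblasts. The control libraries (35, 36 and 37) are labelled WT, without word on whether they carried Cre or the cassette, so effects of Cre or the cassette and of TFEB cannot be told apart. Both groups had the anterior descending branch of the left coronary artery tied off, which causes a myocardial infarction. The labels give neither age nor sex nor the day of sampling, nor whether each library is a separate animal, so each p-value reflects the spread among these samples, which may be technical.

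Interferons are secreted proteins that alert cells to viral nucleic acid or to self DNA and RNA released by damaged cells. Type I interferons bind the Ifnar1 and Ifnar2 receptor chains, which through the kinases Jak1 and Tyk2 assemble a complex that holds Stat2 and Irf9 and binds the interferon-stimulated response element (ISRE) in promoters. Interferon gamma acts through the receptor chains Ifngr1 and Ifngr2 and leads to binding at the gamma-activated site (GAS). Dying cells in an infarct are known to start the type I response in macrophages through the DNA sensor cGAS and the transcription factor Irf3.

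The libraries held from 12942480 to 14969287 estimated counts each. The labels name the tissue as heart and also call the material primary fibroblasts. The marker of heart muscle cells, Myh6, had 7109.9, 9968 and 12759.6 TPM in TFEB 34, 41 and 43, against 10558, 8774 and 11645 TPM in controls 35, 36 and 37 (TPM is a transcript level scaled for length and depth). Tfeb itself had 40.6, 37.3 and 29.1 TPM in TFEB 34, 41 and 43, against 28.2, 28.8 and 31.8 TPM in controls 35, 36 and 37, and its log2 fold change of 0.25 (SE 0.12) did not pass the test (edgeR quasi-likelihood test, adjusted p = 1.00). In bulk RNA, fewer cells of a type and less RNA per cell cannot be told apart. TFEB 34 and TFEB 43 stood apart from the other libraries: TFEB 34 was the highest library for 26.8% of all tested genes and the lowest for 27.4%, and TFEB 43 for 25.0% and 25.5%.

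The promoters of the members carry the ISRE far more often than promoters at large. RefSeq promoter windows (GRCm38.p6, 250 bases before to 50 after the annotated start) were available for 25 of the 32 members. The ISRE, searched on both strands as GAAA, any 2 bases and GAAA again, was found in 15 of these 25 genes (60.0%), against 3.99% of 27025 genes with such a window. The GAS, searched on both strands as TTCNNNGAA, was found in 8 of 25 members (32.0%), against 9.55% of all genes. The core E-box that TFEB binds, CACGTG, was found in 0 of 25 members, against 8.09% of all genes. Among the 10773 tested genes with a window, the shares were 3.82% for the ISRE, 8.26% for the GAS and 11.5% for the core E-box. At that share, 25 genes would hold only a few E-box matches in any case. A match describes letters in this window and not a bound site, and the absence of one says only that these letters are not there. The 5 promoters below are shown because they belong to the most abundant members with an ISRE match among the effectors, regulators and transcription factors, with the matches in capitals. They lie at chr7:141010695-141010994, chr8:71537423-71537722, chr4:156200769-156201068 and chr12:26456403-26456702 on the minus strand, and at chr19:34583279-34583578 on the plus strand, and each is written 5′ to 3′ in the direction of its gene.
Ifitm3: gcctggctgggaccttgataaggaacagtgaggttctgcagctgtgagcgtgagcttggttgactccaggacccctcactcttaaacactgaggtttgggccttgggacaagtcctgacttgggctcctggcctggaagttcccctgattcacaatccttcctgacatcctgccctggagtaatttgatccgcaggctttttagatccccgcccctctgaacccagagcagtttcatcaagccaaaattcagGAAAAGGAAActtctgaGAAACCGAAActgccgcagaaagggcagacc
Bst2: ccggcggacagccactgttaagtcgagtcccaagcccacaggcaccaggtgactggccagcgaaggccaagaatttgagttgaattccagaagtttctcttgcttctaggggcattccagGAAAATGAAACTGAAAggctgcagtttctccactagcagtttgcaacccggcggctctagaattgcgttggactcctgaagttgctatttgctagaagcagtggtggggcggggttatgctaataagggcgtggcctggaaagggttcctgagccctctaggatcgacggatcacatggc
Isg15: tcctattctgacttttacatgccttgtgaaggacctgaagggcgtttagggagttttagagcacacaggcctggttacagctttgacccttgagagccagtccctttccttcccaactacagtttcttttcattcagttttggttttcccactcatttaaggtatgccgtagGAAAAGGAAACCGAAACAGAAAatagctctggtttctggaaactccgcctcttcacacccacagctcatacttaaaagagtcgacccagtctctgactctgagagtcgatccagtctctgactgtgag
Ifit3: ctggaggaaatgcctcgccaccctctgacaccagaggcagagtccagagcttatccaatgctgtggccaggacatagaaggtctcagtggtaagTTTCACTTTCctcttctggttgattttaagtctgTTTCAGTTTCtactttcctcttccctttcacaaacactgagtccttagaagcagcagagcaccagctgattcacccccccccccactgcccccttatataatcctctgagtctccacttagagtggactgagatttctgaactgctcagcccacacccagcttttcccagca
Rsad2: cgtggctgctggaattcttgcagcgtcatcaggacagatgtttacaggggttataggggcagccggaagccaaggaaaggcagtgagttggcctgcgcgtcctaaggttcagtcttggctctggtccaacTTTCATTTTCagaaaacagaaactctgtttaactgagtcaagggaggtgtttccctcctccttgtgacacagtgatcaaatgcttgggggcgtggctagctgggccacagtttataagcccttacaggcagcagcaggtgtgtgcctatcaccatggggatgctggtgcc
Isg15 has 3 matches that overlap each other and begin 78, 72 and 66 bases before the start. Bst2 has 2 overlapping matches that begin 130 and 124 bases before it. Ifit3 has 2 separate matches, on the opposite strand, at 156 and 122 bases before the start, and Rsad2 has 1 on the opposite strand at 120 bases before it. Both matches of Ifitm3 lie after the annotated start, at bases 3 and 20.

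**Figure D1:**
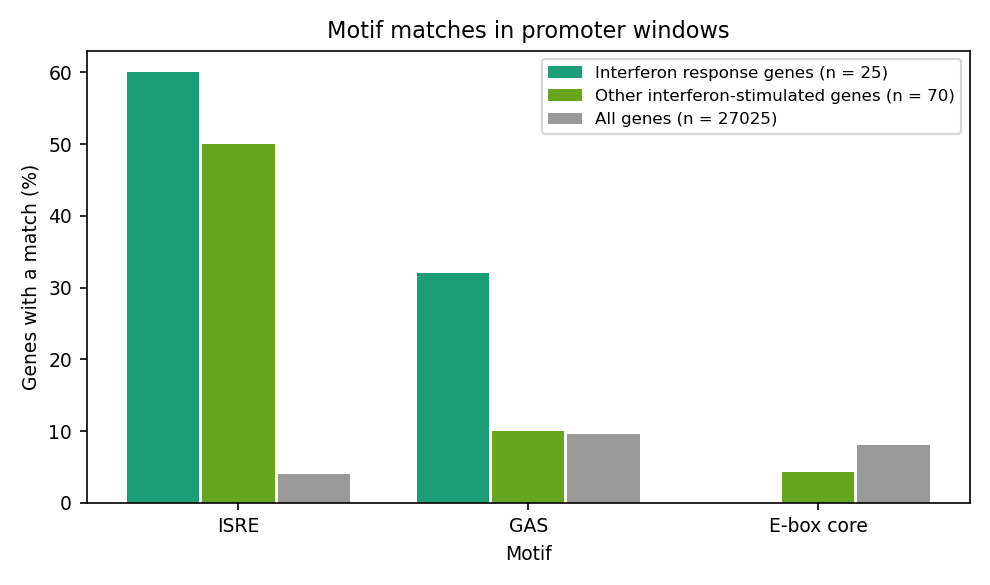
Share of genes (%, vertical axis) with at least 1 match of each motif (horizontal axis) in the 300-base promoter window, for the interferon response genes, the list of other interferon-stimulated genes and all genes with a window. The ISRE was found in 60.0% of the interferon response genes, 50% of the other interferon-stimulated genes and 3.99% of all genes.

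Between TFEB and control hearts, no interferon response gene passed the test, and the median fold change of the set was near 0. The edgeR quasi-likelihood test called 0 of 32 members at an adjusted p under 0.05, against 0% of all tested genes, and the adjusted p was 1.00 for each member. At an unadjusted p under 0.05 it held 0 members, against 0.376% of all tested genes higher, 0.833% lower and 1.21% in all. The other tools, DESeq2 and limma, also called 0 members. The fitted log2 fold change, TFEB over control, was above 0 in 12 members (37.5%), against 51% of all tested genes, and below 0 in 20 (62.5%), against 49%. Its median was −0.07 among members and 0.0030 over all tested genes. Single libraries set that sign: the median was 0.07 without TFEB 43, with 22 members above 0, and 0.04 without control 36, with 20 above 0. Of the 32 members, 21 changed sign in at least 1 of the 6 fits that left out a library. The median was 0.01 without control 37, and −0.17 both without TFEB 34 and without control 35, with 5 and 4 members above 0. For 28 of 32 members the 95% interval lay within a 2-fold change in either direction, and for 14 within a 1.5-fold change. The 4 whose interval reached past 2-fold were Zbp1, Oas3, Rsad2 and Ifi27l2a. In CPM, which are counts scaled for depth with edgeR's TMM factors, 2 members had groups without overlap, against 4.75% of all tested genes. Psmb9 lay higher in all TFEB libraries, as did 2.24% of all tested genes, and Ifi27l2a lower, as did 2.51%. With 1 library left out, groups of 3 and 2 separated in 8.16% to 20.3% of all tested genes. Without TFEB 43 the count was 6 members (18.8%), against 20.3% of all tested genes. Without control 35 it was 7 members (21.9%), against 9.42%, and without any one of the other 4 libraries it was 2 or 3 members.

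**Figure D2:**
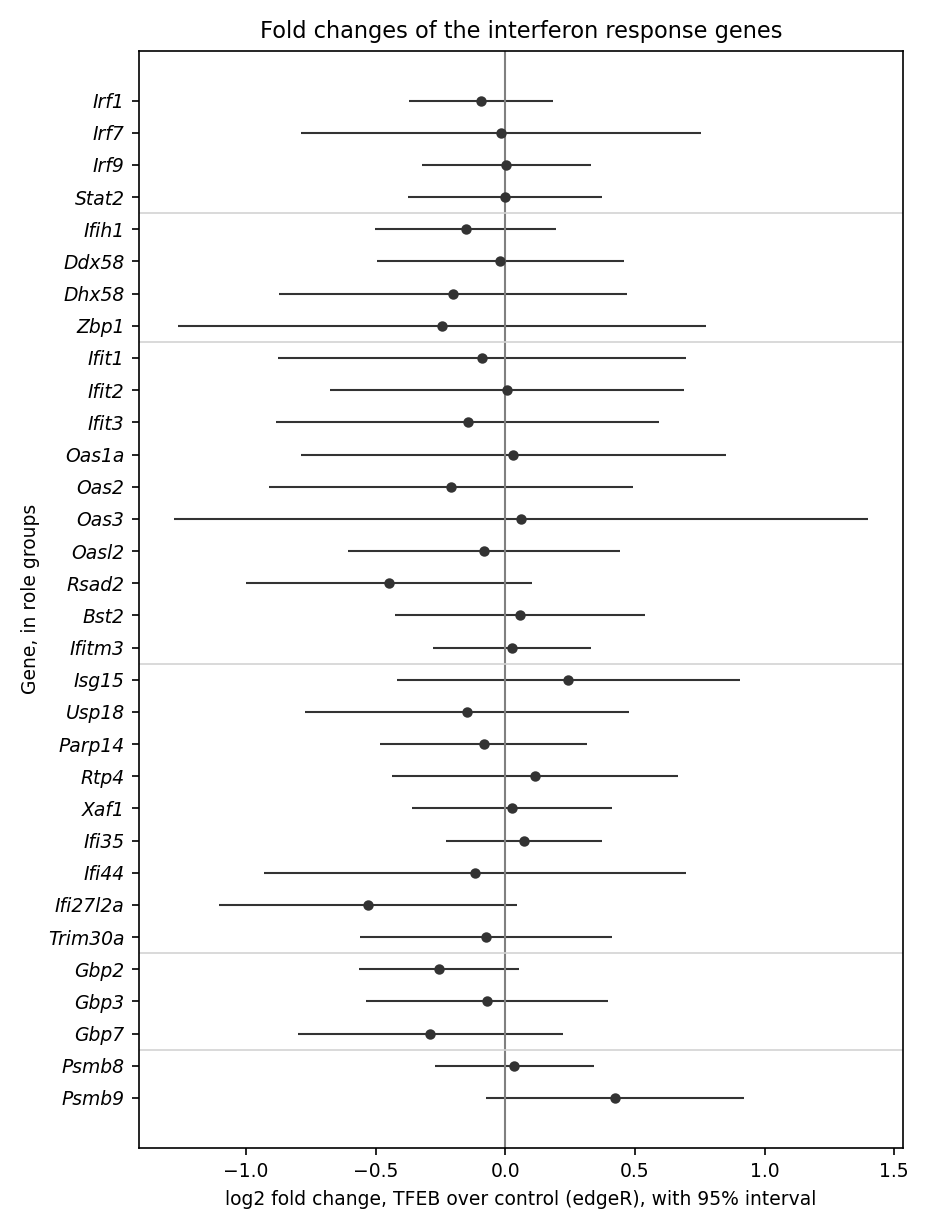
Log2 fold change of each of the 32 tested interferon response genes, TFEB over control (horizontal axis), with its 95% interval from the edgeR fit, grouped by role (vertical axis). Every interval includes 0, from −0.53 for Ifi27l2a at the low end to 0.42 for Psmb9 at the high end.

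The members varied together across libraries within both groups. TFEB 43 was the lowest library for 18 of 32 members (56.2%), against 25.5% of all tested genes. Control 35 was the lowest for 12 (37.5%), against 13.4%. Control 36 was the highest for 12 members (37.5%), against 11.4% of all tested genes, and control 37 for 9 (28.1%), against 11.9%. TFEB 34 was the highest for 7 (21.9%), below its share of 26.8% over all tested genes. TFEB 43 and control 35 were together the 2 lowest libraries for 22 members (68.8%), against 7.11% of all tested genes. By role, this held for 4 of 4 transcription factors, 10 of 10 antiviral effectors, 5 of 9 regulators, 2 of 4 sensors, 1 of 2 immunoproteasome subunits and 0 of 3 guanylate-binding proteins. Of the members with a promoter window, the same held for 11 of 15 with an ISRE match and 7 of 10 without. The SD of log2 CPM over the 6 libraries had a median of 0.29 among members, against 0.21 over all tested genes. Averaged over the members, log2 CPM minus its 6-library mean was 0.19, 0.05 and −0.34 in TFEB 34, 41 and 43, against −0.25, 0.20 and 0.16 in controls 35, 36 and 37. One library of each group was therefore low for most of these genes, and the groups overlapped. This pattern was noticed in these libraries and is given as a description.

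**Figure D3:**
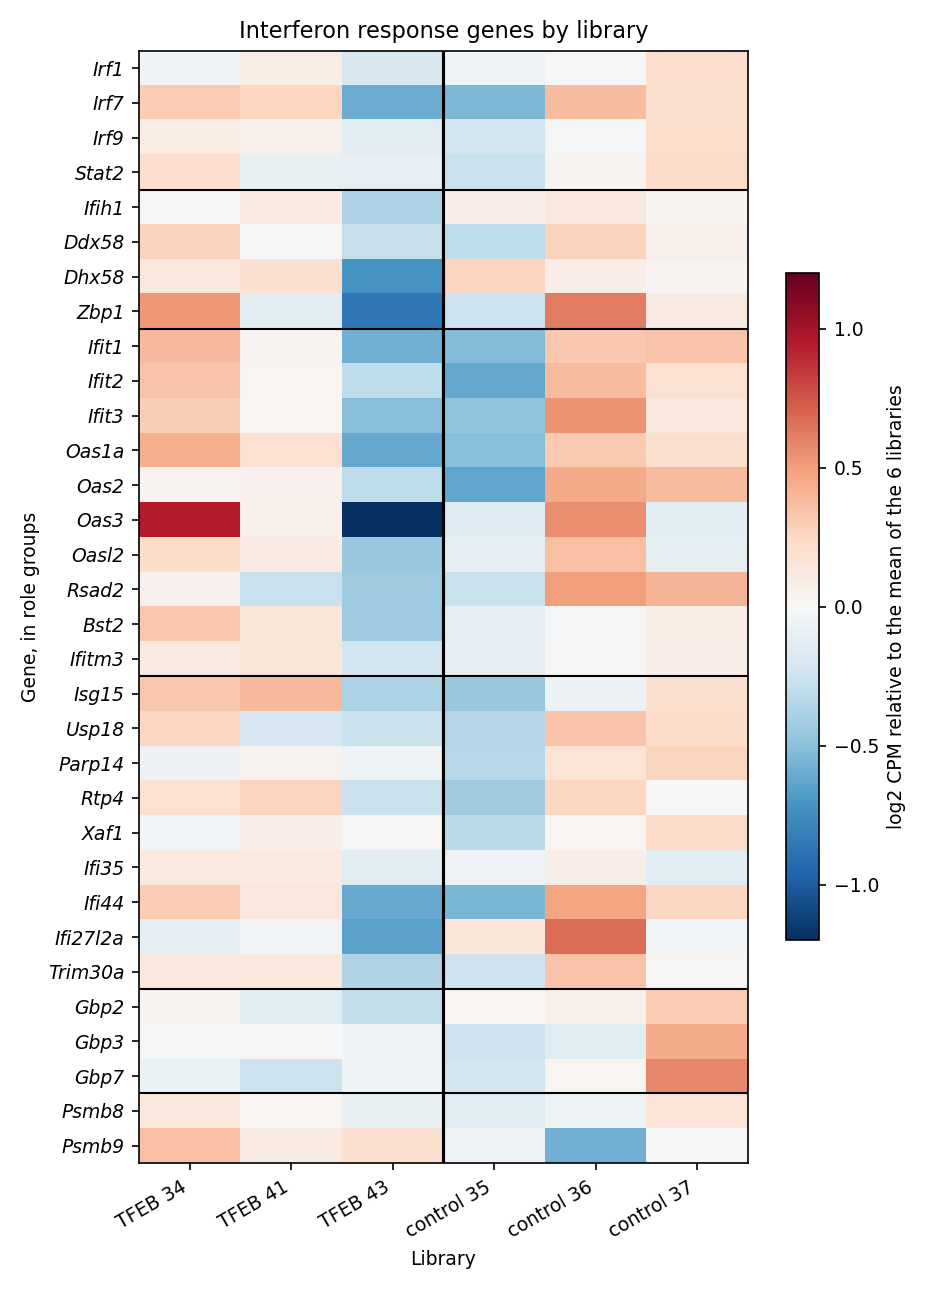
Log2 CPM of the 32 interferon response genes (vertical axis, in role groups) in each library (horizontal axis), relative to the mean of the 6 libraries of that gene. Blue cells, below the mean, gather in TFEB 43 and control 35, the 2 lowest libraries for 22 of the genes.

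The transcription factors of the pathway were measured at 13.1 to 32.9 TPM over the 6 libraries. Irf7, the factor that amplifies type I interferon production and is itself induced by interferon, had 31.0, 28.0 and 14.2 TPM in TFEB 34, 41 and 43, against 16.1, 31.7 and 24.8 TPM in controls 35, 36 and 37. It was low in TFEB 43 and control 35 and higher in each of the others, and its log2 fold change was −0.02 (SE 0.32). Irf9, the DNA-binding part of the complex with Stat2, had 24.1, 22.6 and 17.7 TPM in TFEB 34, 41 and 43, against 18.2, 22.7 and 22.7 TPM in controls 35, 36 and 37. Stat2 had 19.5, 14.8 and 13.4 TPM in TFEB 34, 41 and 43, against 13.1, 16.9 and 17.1 TPM in controls 35, 36 and 37. Both were also lowest in TFEB 43 and control 35, over a narrower range. Irf1, a factor induced most strongly by interferon gamma, had 32.9, 32.3 and 24.4 TPM in TFEB 34, 41 and 43, against 29.3, 31.7 and 32.4 TPM in controls 35, 36 and 37. The fit gave a log2 change of −0.09 (SE 0.12), which is a ratio of 0.937 with a 95% interval of 0.773 to 1.14, and the groups overlapped.

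None of the nucleic acid sensors passed the test, and the groups overlapped for each. Ddx58, which encodes the RNA sensor RIG-I, had 13.8, 10.3 and 7.94 TPM in TFEB 34, 41 and 43, against 8.51, 13.3 and 10.1 TPM in controls 35, 36 and 37, with a log2 fold change of −0.02 (SE 0.20). Ifih1, which encodes the long double-stranded RNA sensor MDA5, had 6.89, 6.75 and 4.53 TPM in TFEB 34, 41 and 43, against 6.96, 7.26 and 6.0 TPM in controls 35, 36 and 37. TFEB 43 lay below the other 5 libraries, and the log2 fold change of −0.15 (SE 0.14) was −0.02 without it. Dhx58, which encodes LGP2, a regulator of both sensors, had 3.82, 3.67 and 1.81 TPM in TFEB 34, 41 and 43, against 3.87, 3.58 and 3.09 TPM in controls 35, 36 and 37 and a log2 fold change of −0.20 (SE 0.28). Zbp1, a sensor of left-handed nucleic acid that can start necroptosis, had 6.33, 3.72 and 1.02 TPM in TFEB 34, 41 and 43, against 2.90, 4.74 and 3.86 TPM in controls 35, 36 and 37. The log2 fold change of Zbp1 was −0.24 (SE 0.42), and it rested on only 14 to 47 counts per library. Leaving out TFEB 43 turned the sign of Ddx58 (0.10), Dhx58 (0.03) and Zbp1 (0.03). Ddx58 also turned without TFEB 41 (0.01) or control 36 (0.12), and Zbp1 without control 36 (0.02).

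The antiviral effectors shared their 2 lowest libraries but not their highest, and none passed the test. These 10 genes are part of the 22 members that show the low pair, TFEB 43 and control 35. In CPM the 2 highest were TFEB 34 and TFEB 41 for Bst2 and Ifitm3, and controls 36 and 37 for Oas2 and Rsad2. For the other effectors the 2 highest were TFEB 34 and 1 control. The Ifit proteins bind foreign RNA and block its translation. Ifit1 had 9.12, 6.59 and 3.96 TPM in TFEB 34, 41 and 43, against 4.48, 8.43 and 7.56 TPM in controls 35, 36 and 37. Ifit2 had 19.6, 14.6 and 10.7 TPM in TFEB 34, 41 and 43, against 9.26, 19.7 and 15.2 TPM in controls 35, 36 and 37. Ifit3 had 28.9, 22.3 and 14.1 TPM in TFEB 34, 41 and 43, against 15.6, 33.1 and 22.3 TPM in controls 35, 36 and 37. Ifit3 shares 31.7% of the 100-base windows of its coding transcripts with Ifit3b, so its reads could be divided between them. In each Ifit gene the libraries of a group lay further apart than the 2 group means. The Oas genes encode enzymes that sense double-stranded RNA and activate the nuclease RNase L. Oas1a had 9.91, 7.16 and 4.10 TPM in TFEB 34, 41 and 43, against 4.56, 8.45 and 6.74 TPM in controls 35, 36 and 37. It shares 40.1% of such windows with Oas1g, so its level is uncertain. Oas3 had no more than 0.92 TPM, with 6 to 36 counts per library. Oas2 had 10.3, 9.60 and 7.18 TPM in TFEB 34, 41 and 43, against 5.99, 14.7 and 11.7 TPM in controls 35, 36 and 37, with a log2 fold change of −0.21 (SE 0.29). That value was −0.48 without control 35 and −0.02 without control 36. Without control 35, the edgeR unadjusted p was under 0.05 for 2 members, Oas2 and Rsad2, and for 97 of 13678 tested genes. The same held for 1 member, Gbp2, without TFEB 34 (231 of 13709 tested genes). It held for 1 member, Ifi27l2a, without control 37 (263 of 13787 tested genes). Oasl2, an Oas-like protein, had 22.5, 18.7 and 11.8 TPM in TFEB 34, 41 and 43, against 16.2, 24.0 and 14.9 TPM in controls 35, 36 and 37. In CPM, TFEB 43 and control 35 were the 2 lowest libraries for each of these genes.

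Rsad2, which encodes viperin, an enzyme that makes a chain-terminating nucleotide, had the most negative fold change among the effectors. It had 17.8, 13.3 and 10.9 TPM in TFEB 34, 41 and 43, against 13.2, 23.6 and 19.6 TPM in controls 35, 36 and 37. Controls 36 and 37 lay above every TFEB library, and control 35 lay below TFEB 34 and TFEB 41. It averaged 14.0 ± 3.53 TPM in TFEB and 18.8 ± 5.27 TPM in control (SD, n = 3 each). On the log2 scale the fitted change was −0.45 (SE 0.23), which is a ratio of 0.733 with a 95% interval of 0.500 to 1.07. The edgeR unadjusted p was 0.0953, and without control 35 the log2 fold change was −0.65. The 2 most abundant effectors are membrane proteins: Ifitm3 blocks virus entry from endosomes, and Bst2 (tetherin) holds budding virus at the cell surface. Ifitm3 had 426, 403 and 290.4 TPM in TFEB 34, 41 and 43, against 334, 388 and 365 TPM in controls 35, 36 and 37. The fit gave a log2 change of 0.03 (SE 0.13), which is a ratio of 1.02 with a 95% interval of 0.824 to 1.26, and it turned to −0.02, −0.03 and −0.03 without TFEB 34, TFEB 41 or control 35. Bst2 had 99.6, 81.0 and 50.1 TPM in TFEB 34, 41 and 43, against 67.8, 76.5 and 73.4 TPM in controls 35, 36 and 37. Both were lowest in TFEB 43 and overlapped between the groups.

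Among the regulators, Isg15 is a ubiquitin-like protein that is attached to others during the response, and Usp18 removes it and dampens receptor signalling. Isg15 had 30.1, 29.0 and 15.8 TPM in TFEB 34, 41 and 43, against 16.1, 22.3 and 23.8 TPM in controls 35, 36 and 37. In TPM, TFEB 34 and TFEB 41 lay above every control, and TFEB 43 lay below every control. It averaged 25.0 ± 7.95 TPM in TFEB and 20.7 ± 4.10 TPM in control (SD, n = 3 each). On the log2 scale the fitted change was 0.24 (SE 0.27), which is a ratio of 1.18 with a 95% interval of 0.748 to 1.87. It was 0.09 without control 35 and 0.45 without TFEB 43. Usp18 had 7.80, 5.23 and 4.58 TPM in TFEB 34, 41 and 43, against 4.71, 8.03 and 6.53 TPM in controls 35, 36 and 37, and Ifi44 had 7.89, 6.35 and 3.53 TPM in TFEB 34, 41 and 43, against 4.04, 8.42 and 6.48 TPM in controls 35, 36 and 37. Neither separated the groups. Rtp4 ran from 13.4 to 23.4 TPM, Trim30a from 7.80 to 14.6 TPM, Parp14 from 9.46 to 14.0 TPM, Xaf1 from 8.03 to 10.7 TPM and Ifi35 from 21.0 to 29.5 TPM over the 6 libraries. Their groups overlapped too.

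Ifi27l2a, a small interferon-induced membrane protein, was the member with the smallest p. It overlaps Ifi27 along the chromosome, and how reads there were divided is not known. Its coding transcripts share 0.0% of 100-base windows with coding transcripts of other genes, the only ones searched. It had 187, 180.3 and 112 TPM in TFEB 34, 41 and 43, against 204, 313 and 174 TPM in controls 35, 36 and 37. In CPM it had 20.5, 21.7 and 14.2 in TFEB 34, 41 and 43, against 24.5, 35.2 and 21.7 in controls 35, 36 and 37. TFEB 41 and control 37 were nearly equal in CPM, where the groups just failed to overlap, and the groups overlapped in TPM. On the log2 scale the fitted change was −0.53 (SE 0.24), which is a ratio of 0.693 with a 95% interval of 0.465 to 1.03, and the edgeR unadjusted p was 0.0658. Without control 36, the highest library, the log2 fold change was −0.30, and over the fits that left out 1 library it ran from −0.67 to −0.30. Unlike most members, Ifi27l2a was not low in control 35, which was its second highest library.

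**Figure D4:**
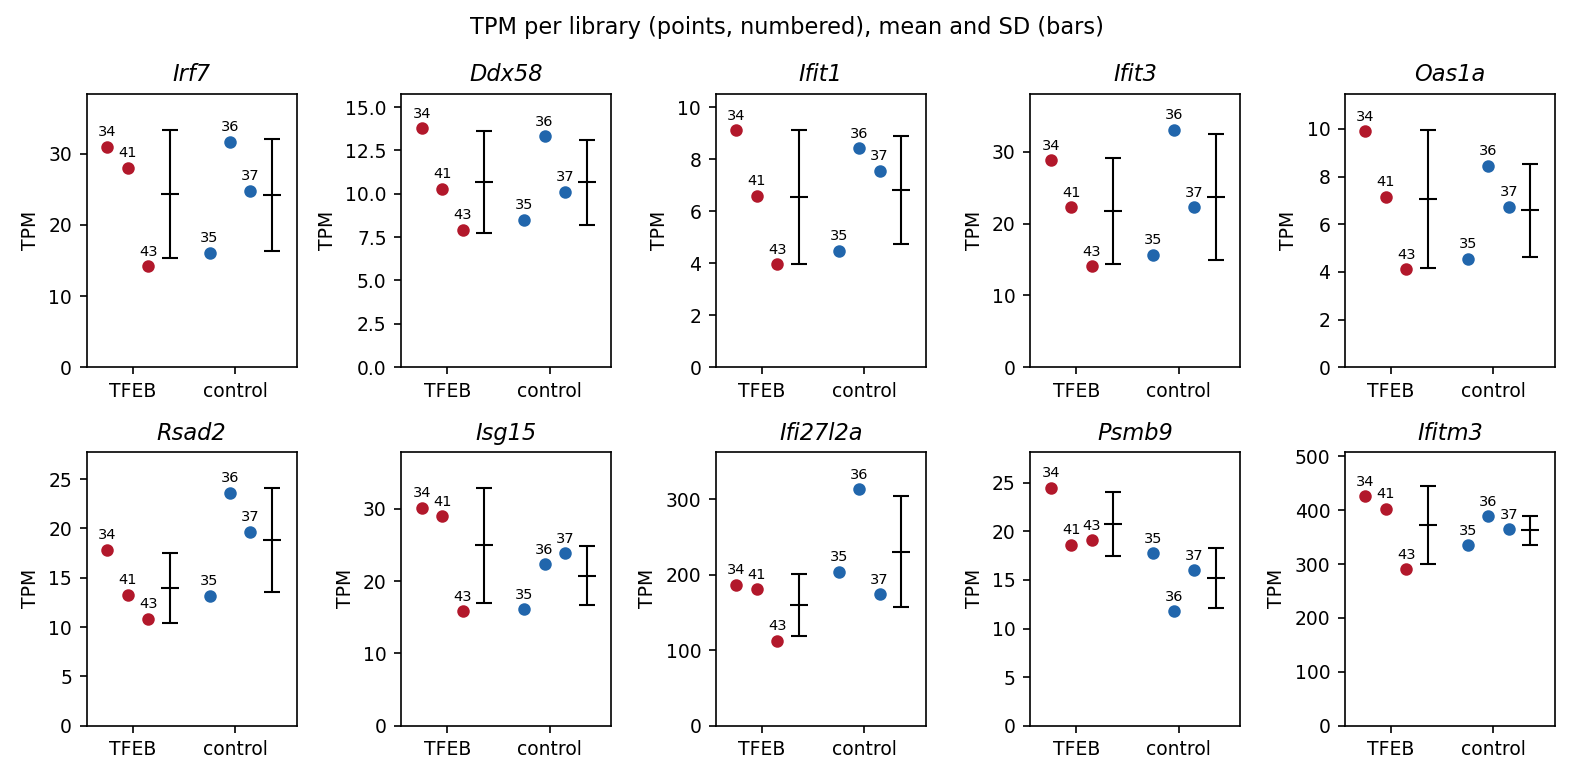
TPM of 10 interferon response genes (vertical axes, starting at 0) in the TFEB and control libraries, each point 1 library with its number, and bars the mean and SD (n = 3 each). TFEB 43 and control 35 are the low points of Irf7, Ddx58, Ifit1, Ifit3, Oas1a, Rsad2, Isg15 and Ifitm3, while Psmb9 is lowest in control 36.

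The guanylate-binding proteins, large GTPases that attack membranes around intracellular pathogens and are strongly induced by interferon gamma, followed another order of libraries. Gbp2 had 24.2, 19.8 and 16.4 TPM in TFEB 34, 41 and 43, against 21.99, 23.9 and 24.9 TPM in controls 35, 36 and 37. Gbp3 had 18.2, 17.0 and 15.0 TPM in TFEB 34, 41 and 43, against 14.4, 16.3 and 21.7 TPM in controls 35, 36 and 37, and Gbp7 had 10.7, 8.78 and 9.26 TPM in TFEB 34, 41 and 43, against 8.91, 11.2 and 14.5 TPM in controls 35, 36 and 37. All 3 were highest in control 37. The log2 fold changes were −0.25 (SE 0.13) for Gbp2, −0.07 (SE 0.19) for Gbp3 and −0.29 (SE 0.21) for Gbp7. The ratio of Gbp2 was 0.839 with a 95% interval of 0.677 to 1.04, and its edgeR unadjusted p was 0.0919. Without control 37 the log2 fold changes were −0.16 for Gbp2, 0.18 for Gbp3 and −0.03 for Gbp7.

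Of the immunoproteasome subunits, which replace constitutive proteasome subunits and change the peptides cut for antigen presentation, Psmb9 was higher in every TFEB library than in any control. Psmb9 had 24.5, 18.6 and 19.1 TPM in TFEB 34, 41 and 43, against 17.8, 11.8 and 16.0 TPM in controls 35, 36 and 37. It averaged 20.7 ± 3.28 TPM in TFEB and 15.2 ± 3.07 TPM in control (SD, n = 3 each), without overlap of the groups in TPM or in CPM. On the log2 scale the fitted change was 0.42 (SE 0.21), which is a ratio of 1.34 with a 95% interval of 0.951 to 1.89, and the edgeR unadjusted p was 0.0827. Leaving out each library in turn gave 0.26 to 0.52, with 0.26 without control 36. The gene had 60 to 127 estimated counts per library. Psmb8 had 35.9, 30.8 and 26.2 TPM in TFEB 34, 41 and 43, against 27.3, 30.5 and 31.6 TPM in controls 35, 36 and 37. Its log2 fold change was 0.04 (SE 0.13), and it turned to −0.02 without TFEB 34 and to −0.03 without control 35. Psmb10, the third inducible subunit and no member of the set, had 63.4, 64.5 and 55.6 TPM in TFEB 34, 41 and 43, against 43.3, 60.3 and 44.9 TPM in controls 35, 36 and 37. Its groups did not overlap in CPM but overlapped in TPM, where control 36 lay above TFEB 43, and its log2 fold change was 0.30 (SE 0.12), with an unadjusted p of 0.0480 and an adjusted p of 1.00 in edgeR. The subunits that Psmb8 and Psmb9 replace, Psmb5 and Psmb6, were far more abundant, at 266 ± 11.7 TPM in TFEB and 253 ± 26.4 TPM in control (SD, n = 3 each) for Psmb5 and 174 ± 11.6 TPM in TFEB and 176 ± 10.6 TPM in control (SD, n = 3 each) for Psmb6.

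The rest of the pathway was read from 5 lists. Of the interferon ligands, only Ifng and Ifnz had a row in the table, with no more than 3 counts in any library. Ifng, the gene of interferon gamma, had 2, 0 and 0 counts in TFEB 34, 41 and 43, against 0 counts in each control. Of 21 receptor and signalling genes, edgeR called 0 (0 at an unadjusted p under 0.05), with a median log2 fold change of 0.02. Ifnar1, a receptor chain for type I interferon, had 18.4, 14.2 and 10.6 TPM in TFEB 34, 41 and 43, against 12.8, 15.6 and 11.5 TPM in controls 35, 36 and 37. Ifngr1, a receptor chain for interferon gamma, had 121, 72.1 and 56.7 TPM in TFEB 34, 41 and 43, against 75.4, 89.8 and 64.2 TPM in controls 35, 36 and 37. The log2 fold changes with the smallest p in that list were those of the inhibitor Pias1 at −0.14 (SE 0.10), the kinase gene Jak2 at −0.14 (SE 0.10), the receptor gene Ifngr2 at 0.22 (SE 0.20) and the myeloid factor Irf8 at 0.39 (SE 0.36). Ifngr2 stood at 0.05 without TFEB 43, and Irf8 turned to −0.02 without TFEB 34. Of 22 sensor adaptors and kinases, edgeR also called 0 (0 at an unadjusted p under 0.05), with a median of 0.03. The log2 fold changes with the smallest p were those of the adaptor gene Traf3 at 0.22 (SE 0.13), Samhd1 at −0.12 (SE 0.09), the kinase gene Tbk1 at −0.14 (SE 0.11) and the RNA receptor gene Tlr3 at −0.14 (SE 0.11). Cgas, the DNA sensor gene, had 1.4, 1.58 and 0.750 TPM in TFEB 34, 41 and 43, against 0.810, 1.31 and 0.780 TPM in controls 35, 36 and 37, and Sting1, which encodes its adaptor, had 14.7, 13.2 and 8.67 TPM in TFEB 34, 41 and 43, against 8.42, 14.8 and 7.52 TPM in controls 35, 36 and 37. Both were low in TFEB 43, control 35 and control 37.

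In the list of other interferon-stimulated genes, the edgeR test called 0 of 84 members, and the median log2 fold change was −0.03, with 36 above 0 and 48 below. Gbp8, a further guanylate-binding protein, had an unadjusted p under 0.05 in edgeR (0.0496), with 0.827, 0.293 and 0.413 CPM in TFEB 34, 41 and 43, against 1.88, 1.33 and 0.700 CPM in controls 35, 36 and 37. Its log2 fold change was −1.32 (SE 0.55). That value rested on only 13, 4 and 5 counts in TFEB 34, 41 and 43, against 28, 19 and 9 in controls 35, 36 and 37. Gbp8 was 1 of 84 genes with an unadjusted p under 0.05, against 1.21% of all tested genes. Iigp1, a GTPase induced by interferon gamma, had 43.4, 37.7 and 52.8 TPM in TFEB 34, 41 and 43, against 61.4, 53.0 and 96.2 TPM in controls 35, 36 and 37, highest in control 37 like the Gbp members. Its fitted log2 change was −0.67 (SE 0.30), and −0.31 without control 37. The log2 fold change was −0.45 (SE 0.22) for Ifi205 and −0.23 (SE 0.11) for Xdh, which encodes xanthine dehydrogenase. TFEB 43 and control 35 were the 2 lowest libraries for 31 of these 84 genes (36.9%), against 7.11% of all tested genes. Not every list shared this pair. It held for 2 of 21 class I antigen presentation genes (9.52%) and did not occur among the receptor and signalling genes. There the most frequent low pair was TFEB 43 and control 37, for 9 of 21 genes (42.9%), against 21.5% of all tested genes. Of 21 class I antigen presentation genes, edgeR called 0, and 1, Psmb10, had an unadjusted p under 0.05. The median log2 fold change was 0.03. B2m, the light chain of class I molecules, had 1117, 764 and 591 TPM in TFEB 34, 41 and 43, against 716, 901 and 689.6 TPM in controls 35, 36 and 37. The log2 fold changes were 0.24 (SE 0.12) for the chaperone gene Calr, −0.10 (SE 0.09) for Tap2 and 0.25 (SE 0.24) for H2-M3, which turned to −0.02 without TFEB 34.

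The library order of the interferon response genes was set beside markers of cell types that take part in the response. On the scale used for the members, the macrophage and monocyte list stood at 0.72, 0.22 and −0.65 in TFEB 34, 41 and 43, against −0.09, 0.39 and −0.59 in controls 35, 36 and 37 (23 of 24 markers tested). Its 2 lowest libraries were TFEB 43 and control 37 for 18 of 23 markers (78.3%), against 21.5% of all tested genes and 2 of 32 interferon response genes. The summed level of the macrophage list ran from 912 to 3543 TPM in TFEB libraries and from 1060 to 2305 TPM in control libraries. In control 37, therefore, the interferon response genes were above their mean and the macrophage markers below theirs, and in control 35 the members were lower relative to their mean than the macrophage markers. Fibroblast markers stood at 0.80, 0.29 and −1.17 in TFEB 34, 41 and 43, against 0.38, 0.38 and −0.68 in controls 35, 36 and 37, and their summed level ran from 2618 to 9152 TPM in TFEB and from 3517 to 6537 TPM in control libraries. Endothelial markers stood between −0.03 and 0.03 in every library on the same scale, with sums between 1065 and 1305 TPM in TFEB and between 1205 and 1374 TPM in control. Smooth muscle and pericyte markers, which include the gene whose promoter drives Cre, stood at 0.37, 0.24 and −0.22 in TFEB 34, 41 and 43, against −0.34, 0.04 and −0.08 in controls 35, 36 and 37, with TFEB 43 and control 35 the lowest as for the members. Acta2 in that list had 264, 339 and 184 TPM in TFEB 34, 41 and 43, against 125, 127 and 152 TPM in controls 35, 36 and 37, without overlap, and a log2 fold change of 0.98 (SE 0.22) (edgeR unadjusted p = 0.00394, adjusted p = 1.00). Lymphocyte markers summed to 7.56 to 15.3 TPM in TFEB and 5.68 to 22.2 TPM in control libraries, with 4 of 13 tested. Neutrophil markers summed to 11.5 to 27.6 TPM in TFEB and 7.70 to 32.5 TPM in control, with 4 of 10 tested, and Ly6g, a defining neutrophil marker, was listed at 0 in every library but TFEB 34, at 0.19 TPM. The plasmacytoid dendritic cell list, with 3 of 8 markers tested, stood at 0.35, 0.14 and −0.40 in TFEB 34, 41 and 43, against −0.22, 0.25 and −0.13 in controls 35, 36 and 37, so TFEB 43 and control 35 were its lowest libraries too. One of its 3 tested markers, Cox6a2, is also a gene of heart muscle. Siglech, the defining marker of plasmacytoid dendritic cells, ran from 0.47 to 1.4 TPM in TFEB and from 0.59 to 1.01 TPM in control. The part of these cell types in the order of the libraries was not tested.

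**Figure D5:**
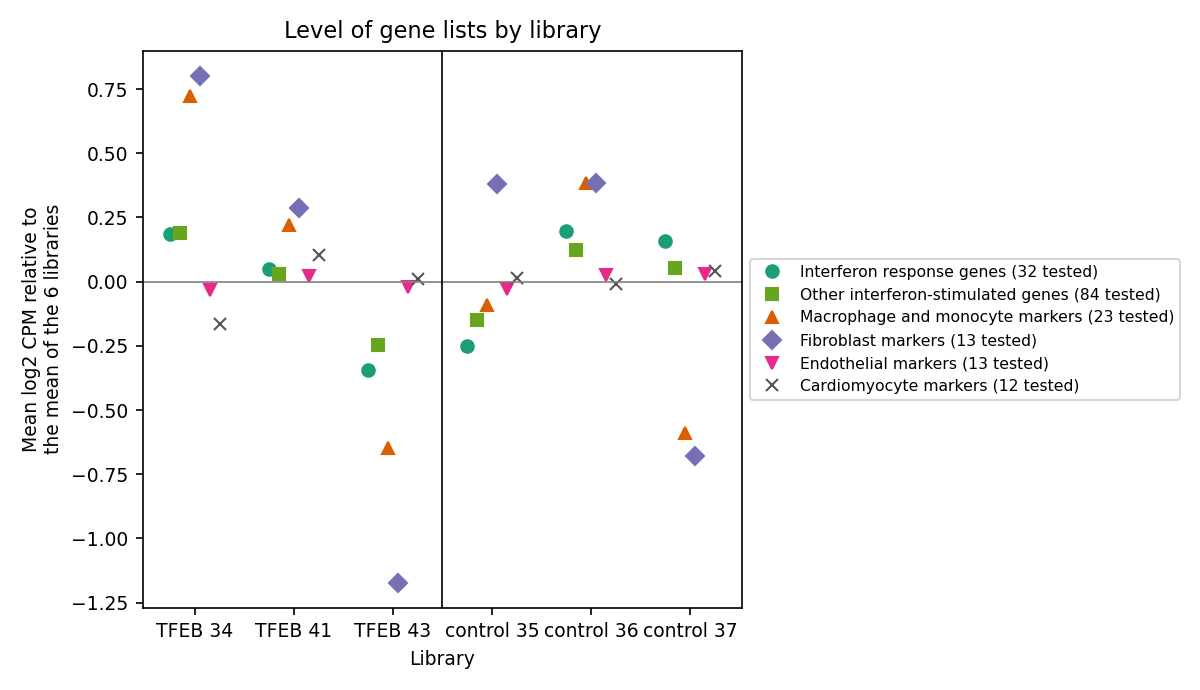
Mean log2 CPM of each gene list relative to the mean of the 6 libraries (vertical axis) in each library (horizontal axis), 1 symbol per list. The interferon response genes are low in TFEB 43 and control 35, at −0.34 and −0.25, and the macrophage and monocyte markers in TFEB 43 and control 37, at −0.65 and −0.59.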

How the data were processed

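The members and gene lists were chosen with earlier results of these data known. Per the submitters' processing notes, the build was mm10 and the tools were RSEM 1.3.1, DESeq2 1.4.5, HISAT2 2.1.0 and Bowtie2 2.3.4.3, with no role named for any. No source used here gives the annotation release or the strand setting. Per the file headers, the authors deposited estimated counts, TPM and FPKM for 62498 RefSeq transcripts. The estimated counts deposited are not scaled for depth. The TPM deposited by the authors are scaled to 1 sum per library, and the FPKM deposited by the authors to transcript length and depth. The columns of normalised counts hold no values and were not used.

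Counts were summed per Entrez gene and rounded, and TPM and FPKM were summed. Symbols came from RefSeq (GRCm38.p6), which named all but 117 of 17524 genes, those holding 0.51% of counts. The comparison was fitted on all tested genes with edgeR 4.0.16 under R 4.3.3 (genes kept by filterByExpr, TMM scaling, a two-sided quasi-likelihood test by glmQLFit and glmQLFTest, Benjamini-Hochberg adjustment, called at an adjusted p under 0.05). Alternatives were RLE and upper-quartile scaling, DESeq2 1.42.0, limma 3.58.1 (voom, and trend on log2(TPM + 1), log2(TPM + 0.1) and log2(FPKM + 1), where a filter of 1 in 3 libraries left 31 members), 2 other filters, an adjusted p under 0.10 and leaving out each library. Levels of lists are mean log2 CPM of tested genes with a prior count of 2. Fold changes are given for the 10 members with the smallest p and, per role, the most abundant member and that with the largest fold change, and for up to 4 genes per pathway list; Acta2, Psmb5, Psmb6, Irf7, Gbp3 and the values of further members were added after values were seen. In simulated counts for this comparison (13434 genes after the filter, 100 changed 2-fold and 100 changed 4-fold), edgeR recovered 29% and 74%, with 4 false calls. Exact permutation of 3 against 3 libraries cannot give a two-sided p below 0.1 and was not run. Precision is given by the spread between libraries, and counting intervals were not computed. The likeness of paralogues was measured as shared 100-base windows of GENCODE M21 coding transcripts, in place of protein identity. Figures were drawn with matplotlib 3.10.9. One gene of the pathway lists is not reported here.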

Additional observations from a re-analysis of the deposited data

How the results depend on the processing

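No member of the interferon set was called under any alternative run, and the receptor, adaptor, other interferon-stimulated and class I lists also had 0 calls under each. Over all genes edgeR called 0, with 164 at an unadjusted p under 0.05, and DESeq2 called 1. The median log2 fold change of the members ran from −0.17 to 0.069 when each library was left out in turn. The count of members whose groups did not overlap ran from 2 to 7. It was 2 (6.25%) without control 36, against 15.2% of all tested genes, and 7 (21.9%) without control 35, against 9.42%. Without TFEB 43 it was 6 (18.8%), against 20.3%. The count of members without overlap was 1 on log2(TPM + 1), log2(TPM + 0.1) and log2(FPKM + 1), where Ifi27l2a overlapped. Of the 32 members, 21 changed sign when at least 1 library was left out. Among the genes whose fold changes are named by rule, those that did so ran from −0.18 to 0.12 for Ddx58, −0.33 to 0.028 for Dhx58, −0.65 to 0.027 for Zbp1, −0.028 to 0.13 for Ifitm3, −0.028 to 0.13 for Psmb8, −0.020 to 0.64 for Irf8 and −0.016 to 0.42 for H2-M3. The cause was not tested. The median over all genes was 0.0081 with RLE and 0.0099 with upper-quartile scaling. No paired analysis was possible because the groups share no replicate number. Reads could be divided with a near copy for Oas1a, whose coding transcripts share 40.1% of 100-base windows with Oas1g, and for Ifit3, with 31.7% shared with Ifit3b. Along the chromosome, Ifit1 overlaps Ifit1bl1, Ifi27l2a overlaps Ifi27, Rtp4 overlaps Masp1 by 1022 bases and Stat2 overlaps Apof by 753 bases. The share of such windows was 3.29% for Ifit1, with Ifit1bl2. It was 0.0% with any other protein-coding gene for Ifi27l2a, Rtp4 and Stat2. Values of these genes are uncertain to that extent. Oas3 and Zbp1, and Gbp8 among the other interferon-stimulated genes, were limited by depth, with at most 36, 47 and 28 counts per library.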

Other observations

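Some interferon response genes were counted mainly through predicted RefSeq transcript models. For Oasl2, 1 predicted model held 89.2% of the gene's mean TPM over the 6 libraries, and for Rtp4 1 predicted model held 82.6%. For Ifit2, 1 predicted model held 56.8% and the curated one 41.3%. Irf7 was divided among 4 models, of which the 2 most abundant, both curated, held 53.5% and 31.7%. Gbp3 was divided among 3 curated models that held 31.9%, 29.7% and 29.2% of the mean over libraries, but not evenly in each library. The model with 29.7% had 6.41, 6.07 and 5.86 TPM in TFEB 34, 41 and 43, against 1.98, 1.43 and 8.74 TPM in controls 35, 36 and 37. For Psmb9, whose gene total was higher in every TFEB library than in any control, the curated model held 81.7% and had 20.1, 14.3 and 16.6 TPM in TFEB 34, 41 and 43, against 16.3, 8.36 and 12.4 TPM in controls 35, 36 and 37. At that level of 1 model the groups overlapped, since control 35 lay above TFEB 41. The predicted model of Psmb9 had 4.47, 4.29 and 2.47 TPM in TFEB 34, 41 and 43, against 1.43, 3.43 and 3.60 TPM in controls 35, 36 and 37, and its groups overlapped too.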
